A study of Mus musculus with 19 samples.

Results

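The urogenital sinus epithelium (UGE) of the mouse embryo was set against 3 other embryonic tissues, to list the transcripts that were higher or lower in this epithelium than in every one of them. Of the 19 arrays of the series, 6 were of UGE. The others were 5 arrays of urogenital sinus mesenchyme (UGM), 4 of epidermis and 4 of dermis, the skin being taken from the back. All tissue came from untreated C57BL/6 embryos on embryonic day 16, and each array read RNA pooled from several embryos. Each gene was placed by its gap, the UGE mean minus the highest of the 3 other means for genes higher in UGE, and the UGE mean minus the lowest of the 3 other means for genes lower in UGE, on the log2 scale. Each of the 3 tissues counted once, whatever its number of arrays.

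The urogenital sinus is the ventral part of the divided cloaca and is lined by endoderm. Its epithelium gives rise to the urothelium of the bladder neck and urethra, and in males it buds into the surrounding UGM under androgen to form the prostate. The UGE sends signals such as Shh to the UGM, and the UGM answers with growth factors that direct budding. Epidermis, by contrast, is of ectodermal origin and at this age is forming the layers of the skin barrier over the dermis.

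The values were linear intensities per probe set, normalized between arrays by the authors and put on the log2 scale here. Of 41549 probe sets tested, those with a single gene symbol stood for 17360 genes, each read from its brightest tested probe set. The 12 genes fixed as markers of UGE, among them Foxa1, Shh, Upk3a, Krt8, Trp63 and Epcam, averaged between 10.34 (Hoxb13) and 14.05 (Krt19) in UGE. They were chosen with earlier results of these data known, so these levels do not test the label. Not all were particular to UGE, since Trp63, Cdh1 and Upk1b were not called against epidermis and Hoxd13 was lower than in UGM. Arrays of 1 group correlated at r = 0.954 to 0.994 in UGE and at 0.971 to 0.997 in the others, over all probe sets. Other tissues were visible in several arrays. The dermis arrays carried Krt10, a keratin of differentiating epidermis, at 13.47 to 14.58, and the epidermis arrays carried Col1a2, a fibroblast collagen, at 12.48 to 13.85. UGM replicate 2 was the highest UGM array in Krt4 (8.84, against 6.15 to 6.65 in the other UGM arrays). Within UGE, the median of 29 mesenchymal genes was 10.12 in both replicates 2 and 3, against 6.38 to 7.81 in the other 4 arrays. Fewer cells of a type and less RNA per cell cannot be told apart in such samples. Trypsin was used to separate the urogenital layers and an overnight dispase digestion to separate those of the skin, so organ and separation method cannot be told apart either, and p-values measure the spread between these pooled samples.

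A gene was called higher in UGE when all 3 contrasts (UGE minus UGM, UGE minus epidermis, UGE minus dermis) gave more than a 2-fold difference at an adjusted p under 0.01, by limma with Benjamini-Hochberg adjustment over all probe sets. By this rule 365 genes (2.1% of those tested) were higher in UGE than in each other tissue, and 230 genes (1.32%) were lower. In 352 of the 365 the 6 UGE values lay above all 13 other values, and in 184 of the 230 they lay below all of them, beside 5.02% and 2.13% of all genes that did so with or without a call. Counted by probe set, 836 (2.01%) were higher and 336 (0.809%) lower, and against the equal-weight mean of the 3 tissues 2701 probe sets (6.5%) were higher and 2264 (5.45%) lower. The nearest tissue to UGE was most often epidermis, in 166 of the higher and 150 of the lower genes. UGM was nearest in 137 and 68, and dermis in 62 and 12. The median gap was 1.48 among the higher genes and -1.50 among the lower. A gap over 4-fold was seen in 113 higher and 64 lower genes. At the threshold, Eya2 lay just inside with a gap of 1.0 and Bcl9 just outside with 0.999, and on the lower side Kcnj8 lay at -1.0 and Cpne5 at -0.996. No gene had probe sets called in opposite directions. Of the 300 further probe sets of the 365 higher genes 108 were also called, and 104 genes were called higher by a dimmer probe set only and are not in the count.

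**Figure D1:**
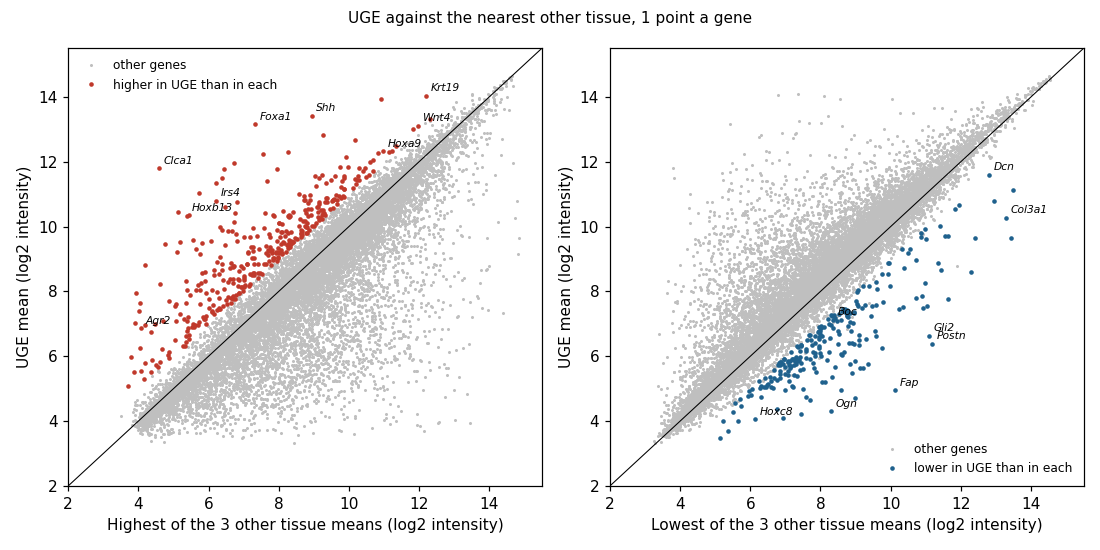
Mean log2 intensity of each of 17360 genes in UGE (vertical axes) against the highest (left panel) and the lowest (right panel) of the means of UGM, epidermis and dermis (horizontal axes). Coloured points are the 365 genes called higher and the 230 called lower, and a few are named, among them Clca1 and Fap with the largest gaps, of 7.23 and -5.17.

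Several of the genes with the largest gaps encode transcription factors. Foxa1, a forkhead factor that opens chromatin in endodermal epithelia, had the second largest gap. Its level in UGE had a lowest, median and highest value of 12.97, 13.15 and 13.35, against 7.29, 8.65, 7.05, 6.69 and 6.99 in UGM, 5.36, 5.47, 5.39 and 5.50 in epidermis, and 5.75, 5.65, 5.79 and 5.38 in dermis. All UGE arrays stood far above the rest, and the highest of the others was UGM replicate 2. The difference from UGM was 5.82 (95% interval 5.33 to 6.31, adjusted p = 3.68e-13, limma), which is 56.6-fold. Its relative Foxa2, a factor of endoderm and notochord, measured 10.18, 10.44 and 10.64 in UGE (lowest, median, highest), against 5.05 to 5.41 in UGM, 4.82 to 5.26 in the epidermis and 4.80 to 5.10 in the dermis. Here the 3 other tissues lay together, and the gap was 5.31 (adjusted p = 4.61e-17 against UGM, limma). Foxa3, the third member of the group, averaged 4.38 in UGE, 4.27 in UGM, 4.56 in epidermis and 4.31 in dermis and was not called.

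Hoxb13, the Hox gene of the prostate, ran at 9.73, 10.29 and 10.96 in UGE (lowest, median, highest), against 5.05 to 5.72 in UGM, 5.04 to 5.26 in the epidermis and 4.92 to 5.53 in the dermis. Its gap of 4.94 (95% interval 4.54 to 5.34, adjusted p = 2.15e-13, limma) was to UGM, the mesenchyme of the same organ. Sp8 (gap 4.63, and 4.49 with the 12 of 13 other values under the minimum of 20 set to it), a zinc-finger factor best known from the limb ridge, averaged 8.82 ± 0.39 in UGE (SD, n = 6), against 4.19 ± 0.14 in UGM (n = 5), 4.05 in epidermis and 4.00 in dermis. Sox2, a factor of progenitor cells in many epithelia, averaged 11.78 ± 0.23 in UGE, against 6.52 in UGM, 5.89 in epidermis and 7.94 in dermis. For Sox2 the nearest tissue was dermis, with values of 7.44, 8.36, 8.17 and 7.81, and the gap was 3.84 (adjusted p = 6.39e-11, limma). The epithelial ETS factors Ehf and Elf3 had gaps of 3.67 and 2.44, both to epidermis. Sox9, which marks prostate buds, was called with a gap of 1.06, and this call was lost without UGE replicate 2 (0.97) or epidermis replicate 3 (0.98).

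In all, 7 of 21 measured regulators of the urogenital sinus and prostate were called higher and 0 lower, where 2.1% and 1.32% of all genes were. Their median gap was 0.07, beside -0.24 over all genes. The other 14 fell into different patterns. Grhl3 and Gata3, regulators of barrier epithelia, stood in UGE close to their epidermal level, with 11.13 in UGE, 5.47 in UGM, 11.05 in epidermis and 8.37 in dermis for Grhl3. Isl1, Tbx2, Tbx3, Gata2 and Esr1 were instead high in both urogenital tissues. Tbx3, a T-box factor, averaged 10.56 in UGE, 9.65 in UGM, 5.46 in epidermis and 5.86 in dermis. Spdef, a factor of mature secretory cells, differed by at most 0.17 from any tissue.

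**Figure D2:**
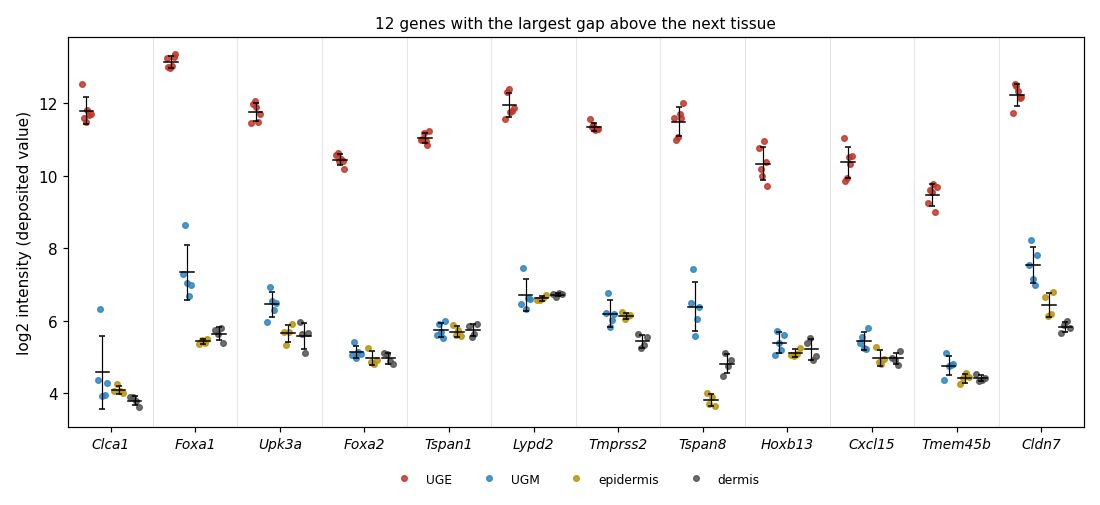
Log2 intensity on each array (points) with mean ± SD (bars) in UGE (n = 6), UGM (n = 5), epidermis (n = 4) and dermis (n = 4) for the 12 genes with the largest gaps above the other tissues among called genes whose UGE values overlap no other, so the separation was set by the choice. In Clca1 UGM replicate 2 stands at 6.34, above the 3.93 to 4.36 of the other UGM arrays.

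The sequence before the start of these genes was read for short motifs of factor families present in UGE. RefSeq windows of 250 bases before the start (GRCm38.p6) were matched by symbol for 277 of the 365 higher and 176 of the 230 lower genes. The forkhead core TGTTTAC, searched on both strands, was found in 4.33% of the higher genes, 3.98% of the lower genes and 2.99% of all 13800 measured genes with a window. The motif AGATAA, bound by GATA factors, was found in 7.94% of the higher genes and 8.39% of all genes. The grainyhead motif AACCGG was found in 7.22% of the higher genes and 9.09% of all genes. The lower genes departed more from all genes in 3 of the motifs searched. The motif AGATAA was found in 4.55% of the lower genes and the grainyhead motif in 3.98%. The TATA box core TATAAA was found in 18.2% of them, where 10.5% of the higher genes and 9.93% of all had it. The posterior Hox motif CAATAAA was in 3.61% of the higher genes, 3.41% of the lower and 3.09% of all. No test was run on these shares. Of the 18 windows of the 25 genes with the largest gaps, the forkhead core lay in those of Foxa1 and Tspan8, and the GATA motif in 4, among them that of Upk3a. The windows of these 3 genes are shown 5′ to 3′ on the gene's strand, with the match in capitals, as both windows with the forkhead core and, of the 4 with the GATA motif, that of the gene with the largest gap. The Foxa1 window is chr12:57546112-57546361 (minus strand), the Tspan8 window chr10:115817034-115817283 (plus strand) and the Upk3a window chr15:85016891-85017140 (plus strand).
Foxa1: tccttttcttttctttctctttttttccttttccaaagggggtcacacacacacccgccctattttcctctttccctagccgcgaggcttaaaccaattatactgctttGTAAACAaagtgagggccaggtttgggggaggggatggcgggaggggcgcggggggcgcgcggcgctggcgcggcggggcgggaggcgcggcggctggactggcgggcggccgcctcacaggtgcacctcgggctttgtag
Tspan8: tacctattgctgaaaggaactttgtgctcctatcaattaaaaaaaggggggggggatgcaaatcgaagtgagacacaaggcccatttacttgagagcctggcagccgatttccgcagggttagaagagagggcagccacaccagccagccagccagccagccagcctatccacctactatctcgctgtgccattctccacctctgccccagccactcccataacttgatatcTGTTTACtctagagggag
Upk3a: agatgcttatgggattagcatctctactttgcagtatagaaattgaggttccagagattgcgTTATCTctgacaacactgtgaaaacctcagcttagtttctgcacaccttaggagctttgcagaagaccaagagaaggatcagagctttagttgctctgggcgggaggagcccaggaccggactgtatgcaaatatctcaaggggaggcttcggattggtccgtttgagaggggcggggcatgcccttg
The match began 141 bases before the start of Foxa1 and 18 before that of Tspan8, and the GATA match 188 before that of Upk3a. In Foxa1 and Upk3a it lies on the opposite strand and is written as its reverse complement. A match is a string of letters and says nothing on binding.

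Uroplakins, the membrane proteins that form the plaques of the urothelial surface, separated into those found in UGE and those shared with epidermis. Upk3a, a partner chain of the plaque, measured 11.47, 11.81 and 12.06 in UGE (lowest, median, highest), against 5.97, 6.93, 6.55, 6.31 and 6.50 in UGM, 5.33 to 5.90 in the epidermis and 5.10 to 5.97 in the dermis. No value of another tissue came near, and the gap was 5.32, which is 39.9-fold (adjusted p = 2.85e-14 against UGM, limma). Upk1a and Upk2 had smaller gaps, of 2.49 and 2.13, with UGE means of 9.69 and 10.13. Snx31, a sorting nexin that binds uroplakins, averaged 9.71 ± 0.11 in UGE, 5.26 ± 0.13 in UGM, 7.38 in epidermis and 5.70 in dermis. Tmprss2, the androgen-regulated serine protease of the prostate, stood at 11.26 to 11.56 in UGE, against 5.82 to 6.78 in UGM, 6.04 to 6.23 in the epidermis and 5.25 to 5.63 in the dermis, a gap of 5.16.

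Upk1b gave a different picture. Its UGE values were 13.07 to 13.51, against 7.33 to 8.62 in UGM, 11.69, 12.08, 12.42 and 12.53 in epidermis, and 7.51 to 9.65 in dermis. UGE and epidermis did not overlap, but the difference of 1.01 had an adjusted p of 0.0204 (limma) and missed the threshold. For Upk3b the difference from epidermis was 0.14 (adjusted p = 0.784, limma), with means of 10.14 in UGE, 6.89 in UGM, 10.00 in epidermis and 6.79 in dermis. Psca, a surface antigen of the prostate, differed from epidermis by 0.62 (adjusted p = 0.138, limma), and UGE replicate 6 stood at 10.37 above 8.66 to 9.04 in the others. Of the 12 urothelial genes 6 were higher than in each tissue and 0 lower, where 2.1% and 1.32% of all genes were. All 12 were higher than in UGM, where 6.77% of all genes were. Against epidermis 6 were higher and 1 lower, where 8.28% and 6.12% of all genes were. Their median gap was 1.57.

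Keratins, the intermediate filaments of epithelia, divided by type. Among those of simple epithelia Krt8 measured 13.77, 13.96 and 14.08 in UGE (lowest, median, highest), against 8.98 to 10.65 in UGM, 10.67, 10.64, 11.15 and 11.16 in epidermis, and 7.91 to 9.21 in dermis. Its partner Krt18 averaged 12.83 in UGE, 9.27 in UGM, 9.14 in epidermis and 6.31 in dermis. Both were called, with gaps of 3.05 and 3.56. Krt19 (gap 1.85) and Krt7 (gap 1.38, adjusted p = 0.00542 against epidermis, limma) were called too. The call of Krt7 was lost without UGE replicate 6 (1.34), epidermis replicate 1 (1.26), 2 (1.22) or 3 (1.42). In total 4 of 6 simple keratins were higher (2.1% of all genes were) and 0 lower. Krt20 and Krt23 were not called against all 3 tissues, and 1 of them was lower than in epidermis (6.12% of all genes were). Krt75, a keratin of the companion layer of hair in adult skin, was not on the list but reached a gap of 4.15. It measured 10.22 to 11.36 in UGE, against 6.14 to 6.70 in UGM, 5.83 to 6.24 in the epidermis and 6.01 to 6.27 in the dermis.

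None of 10 keratins of stratified epithelia was called in either direction. Krt5 and Krt14, the pair of basal cells, were both far above UGM, by 5.60 and 5.49. Against epidermis Krt5 differed by -0.95 (adjusted p = 0.0168, limma) and Krt14 by -2.62 (adjusted p = 4.92e-09, limma). Krt14 values were 10.49 to 11.05 in UGE, against 4.90 to 6.15 in UGM, 13.12 to 13.74 in the epidermis and 12.51 to 13.28 in the dermis. UGE thus overlapped no other group, while epidermis and dermis overlapped each other. Krt4 and Krt15 were close to epidermis, with differences of 0.55 (adjusted p = 0.380) and 0.56 (adjusted p = 0.359, limma both). Krt1 and Krt10, of the layers above the basal one, were 5.23 and 5.65 below epidermis. UGM replicate 2 stood above the other UGM arrays in Krt5 (8.78, against 6.62 to 7.11) and Krt15 (9.85, against 6.50 to 7.10), beside its Krt4 value given above.

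Mucosal and secretory genes held the largest gap of all. Clca1, a secreted regulator of chloride channels in goblet cells, stood at 12.53, 11.59, 11.49, 11.82, 11.67 and 11.71 in UGE, against 4.36, 6.34, 3.93, 3.96 and 4.29 in UGM, 4.05, 4.26, 4.07 and 4.02 in epidermis, and 3.89, 3.90, 3.80 and 3.61 in dermis. The lowest UGE array was above every other array, and UGM replicate 2 alone among the others passed 4.36. The gap was 7.23 (95% interval 6.56 to 7.89, adjusted p = 1.15e-12, limma), and 7.67 without that UGM array. In 11 of the 13 other arrays Clca1 lay under the minimum intensity of 20 (4.32 on the log2 scale) that the filter used, and with these values set to the minimum UGE was at least 134.2-fold higher. Tspan1 and Tspan8, tetraspanins of glandular epithelia, had gaps of 5.29 and 5.11. Tspan1 lay at 10.86 to 11.24 in UGE, against 5.52 to 5.99 in UGM, 5.57 to 5.88 in the epidermis and 5.56 to 5.90 in the dermis. Wfdc2, a secreted protease inhibitor of ducts, averaged 11.41 in UGE, 7.66 in UGM, 6.75 in epidermis and 6.34 in dermis.

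The other secretory genes called were Aldh1a1 (gap 1.94), which makes retinoic acid, Muc4, a membrane mucin, Agr2, needed for mucin folding, and Cyp2f2 (1.38), a cytochrome P450 of airway cells. Muc4 lay under the minimum of 20 in all 13 other arrays and Agr2 in 12 of 13, and with those values set to the minimum UGE was at least 6.57-fold higher for Muc4 and 5.71-fold higher for Agr2. Aldh1a1 was nearest to UGM, with 9.91 in UGE and 7.96 in UGM, 5.91 in epidermis and 5.95 in dermis. Thus 8 of 24 members were higher and 0 lower (2.1% and 1.32% of all genes were). The remaining 16 included the trefoil factors Tff1, Tff2 and Tff3, Pigr, Lcn2 and Ltf, products of mature mucosa, none of which exceeded any other tissue by more than 0.39. The median gap over the list was 0.01. Outside the list, Lypd2, a Ly6 family protein, measured 11.57 to 12.41 in UGE, against 6.34 to 7.46 in UGM, 6.57 to 6.71 in the epidermis and 6.66 to 6.77 in the dermis. Cxcl15, a chemokine of lung epithelium in the mouse, measured 9.85 to 11.04 in UGE, against 5.21 to 5.79 in UGM, 4.81 to 5.28 in the epidermis and 4.78 to 5.17 in the dermis. Tmem45b, a transmembrane protein, had a gap of 4.71.

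Of 25 junction genes 7 were called above epidermis and 6 below it, where 8.28% and 6.12% of all genes were. The other 12 were not called between these 2 epithelia. Cldn7, a tight junction claudin, measured 11.73, 12.26 and 12.53 in UGE (lowest, median, highest), against 7.53, 8.24, 7.16, 6.98 and 7.81 in UGM, 6.12 to 6.79 in the epidermis and 5.67 to 5.99 in the dermis. Its gap was 4.69 (adjusted p = 7.83e-13, limma). Cldn6 (3.42), Cldn8 (3.30), Cldn3 (1.29), the adhesion molecule Epcam (2.54) and the tight junction protein Marveld3 (1.43) were called as well. Dsg2, a desmosomal cadherin, had a gap of 1.09, which was 0.95 and no longer called without epidermis replicate 1. Cldn1, the main claudin of the skin barrier, went the other way, with 6.40 in UGE, 6.66 in UGM, 12.23 in epidermis and 10.15 in dermis. The 7 above epidermis were also the 7 higher than in each tissue (2.1% of all genes were), 0 were lower than in each, and 23 were higher than in UGM (6.77% of all genes). E-cadherin (Cdh1) was 5.59 above UGM and differed from epidermis by 0.17 (adjusted p = 0.702, limma).

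Among transport genes, 2 subunits of the epithelial sodium channel stood out. Scnn1g averaged 9.31 ± 0.17 in UGE, 5.35 ± 0.32 in UGM, 5.63 ± 0.13 in epidermis and 5.34 ± 0.07 in dermis (SD, n = 6, 5, 4 and 4), a gap of 3.68. Scnn1b had a gap of 1.78, to dermis. The third subunit, Scnn1a, was 1.84 below epidermis and differed from UGM by 0.71. The potassium channel Kcnk1 (2.01), the peptide transporter Slc15a2 (2.36) and the sodium pump subunit Atp1b1 (1.20) were called too. Atp1b1 fell to 0.97 and lost its call without epidermis replicate 1. Of 19 transport genes 5 were higher than in each tissue (2.1% of all genes were) and 0 lower, with a median gap of -0.24, the same as over all genes. In single contrasts 7 were higher and 1 lower than in UGM, where 6.77% and 10.2% of all genes were. Against epidermis 8 were higher and 3 lower (8.28% and 6.12% of all genes), and against dermis 6 and 2 (7.66% and 10.5%).

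Several genes of the ranking stood outside every list. Irs4, an adaptor of insulin signalling, measured 10.49 to 11.12 in UGE, against 5.77 to 6.80 in UGM, 5.25 to 6.07 in dermis, and 9.51, 4.68, 5.14 and 4.75 in epidermis. Epidermis replicate 1 was thus unlike its group, and the gap, to UGM, was 4.59 with or without that array. Cpa6, a carboxypeptidase, had a gap of 4.34 to dermis, Igsf5, a junctional immunoglobulin protein, one of 4.13, and Entpd3, an enzyme that breaks down extracellular ATP, one of 3.96. Smim22, a small membrane protein, averaged 12.29 in UGE, 7.04 in UGM, 8.25 in epidermis and 7.10 in dermis. Rasef, a Rab GTPase, and Ttc6, a repeat protein encoded beside Foxa1, had gaps of 4.03 and 4.01 but varied within UGE. Rasef lay under the minimum of 20 in all 13 other arrays, and set to it the gap was 3.64. Ttc6 stood at 10.39, 8.11, 8.66, 9.89, 10.01 and 10.40 in UGE, lowest in replicates 2 and 3, against 5.18 to 5.89 in UGM, 4.96 to 5.37 in the epidermis and 4.85 to 5.31 in the dermis. Rasef was also lowest there, with 7.18 and 6.65 in replicates 2 and 3 and 8.20 to 8.65 in the other UGE arrays. Those were the UGE arrays highest in mesenchymal genes, and the part of mesenchymal RNA in these values was not tested.

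Of 33 signalling ligands 3 were called higher and 1 lower, where 2.1% and 1.32% of all genes were. Their median gap was -0.28, beside -0.24 over all genes. Shh, the hedgehog ligand of this epithelium, measured 13.19, 13.46 and 13.71 in UGE (lowest, median, highest), against 8.47, 9.80, 7.84, 7.72 and 8.65 in UGM, 8.35, 8.10, 7.93 and 8.52 in epidermis, and 8.85, 8.97, 8.88 and 9.07 in dermis. The tissues other than UGE overlapped or lay close together, and UGE stood 4.48 above dermis (95% interval 3.90 to 5.05, adjusted p = 1.68e-10, limma), or 22.3-fold. Fgf1, a fibroblast growth factor, averaged 8.04 in UGE, 5.50 in UGM, 5.63 in epidermis and 5.32 in dermis. Wnt4, called with a gap of 1.12 to epidermis, averaged 13.11 ± 0.11 in UGE, 8.61 in UGM, 11.98 ± 0.10 in epidermis and 10.79 in dermis. Dll1, a Notch ligand, was the one called lower, with 6.50 in UGE, 7.62 in UGM, 8.95 in epidermis and 8.94 in dermis. Wnt7b and Wnt10a exceeded UGM by 3.47 and 3.13, but against epidermis differed by -0.60 (adjusted p = 0.0463) and 0.77 (adjusted p = 0.0107, limma both). Efna1, an ephrin, was 1.79 over UGM and 0.94 over epidermis, under the 2-fold limit. Inha, the inhibin chain, which was on no list, was called with a gap of 1.28.

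Of 25 receptors 6 were higher than in each tissue (2.1% of all genes were) and 0 lower. Fgfr2, whose epithelial form binds growth factors from the mesenchyme, measured 12.15 to 12.51 in UGE, against 10.07 to 10.37 in UGM, 10.47, 11.42, 11.01 and 11.68 in epidermis, and 10.45 to 10.85 in dermis. Its gap of 1.16 dropped to 0.94, and the call was lost, without epidermis replicate 1. Met, the receptor of hepatocyte growth factor, had a gap of 1.30. The R-spondin receptors Lgr5 and Lgr4, which raise Wnt signalling, had gaps of 1.65 and 1.70. Lgr5 averaged 9.69 in UGE, 7.53 in UGM, 5.82 in epidermis and 8.04 in dermis, while for Lgr4 the 3 other tissues lay between 9.76 and 9.88. Il17re (1.27) and the endocytic receptor Lrp2 (1.50) completed the list. Fgfr3, Fzd6 and Notch1 exceeded UGM by 4.02, 3.69 and 1.84, and against epidermis stood at 0.60, 0.93 and -0.92. Acvr2b, an activin receptor, and Itgb6, an integrin chain, lay outside the list and were called with gaps of 1.21 and 1.06. Itgb6 lost its call without UGE replicate 6 (0.93) or epidermis replicate 1 (0.92). Ptprz1, a receptor phosphatase, was called lower, with 5.22 in UGE, 8.12 in UGM, 9.05 in epidermis and 8.32 in dermis.

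Genes of the receiving side of hedgehog signalling were picked after their values were seen, and 4 of the 7 given here, Gli2, Gas1, Boc and Gli1, were called lower in UGE than in each tissue. Gli2, the main activating transcription factor of the pathway, averaged 6.63 ± 2.05 in UGE, 11.45 ± 0.17 in UGM, 11.10 ± 0.17 in epidermis and 11.54 ± 0.22 in dermis. Its UGE values were 6.01, 9.34, 9.12, 5.13, 5.08 and 5.08, so the spread came from replicates 2 and 3, and even these were below every other array. The gap was -4.48 (adjusted p = 4.54e-05 against epidermis, limma). Gas1 and Boc, co-receptors of hedgehog, had gaps of -3.69 and -1.24, and Gli1, a target of the pathway, one of -1.45. Ptch1, the receptor and also a target, was 1.42 below UGM and 0.80 below dermis, and against epidermis differed by -0.25 (adjusted p = 0.153, limma). Hhip, a target that binds the ligand, was 3.77 below UGM, with 5.45 in UGE, 9.22 in UGM, 5.68 in epidermis and 7.11 in dermis. Smo, the signal transducer, differed from UGM by -0.05 (adjusted p = 0.813, limma) and was 1.36 above epidermis.

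Hox genes, which record position along the body axis, gave a urogenital pattern in which only Hoxb13 and Hoxa9 were highest in UGE among 14 posterior members. Hoxa9 measured 11.81 to 12.71 in UGE, against 10.78 to 11.13 in UGM, 5.78 to 7.13 in the epidermis and 8.56 to 9.50 in the dermis, and its gap was 1.36. Hoxd13 was the clearest shared gene. It measured 11.83, 11.96 and 12.19 in UGE (lowest, median, highest) and 12.72, 12.33, 12.79, 12.91 and 12.55 in UGM, against 5.80, 5.34, 5.37 and 5.39 in epidermis and 5.81, 5.79, 5.37 and 5.69 in dermis. Both urogenital tissues lay about equally far from the skin, and UGE was 0.68 below UGM (adjusted p = 0.000101, limma). Hoxc10 was 4.82 below UGM, at 4.89 in UGE, 9.71 in UGM, 5.01 in epidermis and 6.97 in dermis. Of the 14, 7 were higher than in epidermis, where 8.28% of all genes were, and 6 higher than in dermis (7.66%). Of 18 central and anterior Hox genes Hoxd1 was higher (gap 1.31, to dermis) and Hoxc4 and Hoxc8 were lower, beside 2.1% and 1.32% of all genes. Hoxc8, a trunk gene, ran at 3.86 to 4.32 in UGE, against 5.58 to 6.57 in UGM, 8.28 to 8.80 in the epidermis and 9.66 to 10.07 in the dermis, with all 6 UGE values under the minimum of 20. The call of Hoxc4 (gap -1.10) was lost without UGE replicate 4 (-0.98).

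Beside its own genes, UGE shared 315 genes with epidermis and 306 with UGM, each called above both remaining tissues and within 2-fold between the sharing pair. Of the 1176 genes higher in UGE than in UGM, 405 were also called above epidermis and 174 below it. Trp63, the master regulator of stratified epithelia, was high in UGE and skin, with 11.68 ± 0.36 in UGE (SD, n = 6), against 4.52 to 6.71 in UGM, 11.51, 12.33, 12.20 and 12.81 in epidermis, and 10.62 to 11.21 in dermis. Its difference from epidermis was -0.53 (adjusted p = 0.235) and from dermis 0.69 (adjusted p = 0.107, limma both), beside the epidermal RNA in the dermis arrays. Isl1, Ret and Cftr were high in both urogenital tissues. Isl1, a factor of the genital region, averaged 11.65 in UGE, 12.64 in UGM, 5.21 in epidermis and 6.81 in dermis. Ret, the receptor of GDNF, averaged 8.66 in UGE, 10.65 in UGM, 4.84 in epidermis and 4.83 in dermis, and was 1.99 below UGM. Cftr, the chloride channel, differed from UGM by -0.25 (adjusted p = 0.480, limma). None of 28 measured genes of epidermal differentiation was higher or lower in UGE than in each tissue, 19 were lower than in epidermis, where 6.12% of all genes were, and Sprr1a, a cornified envelope protein, was close to epidermis, with 11.65 in UGE, 6.28 in UGM, 10.74 in epidermis and 7.68 in dermis.

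**Figure D3:**
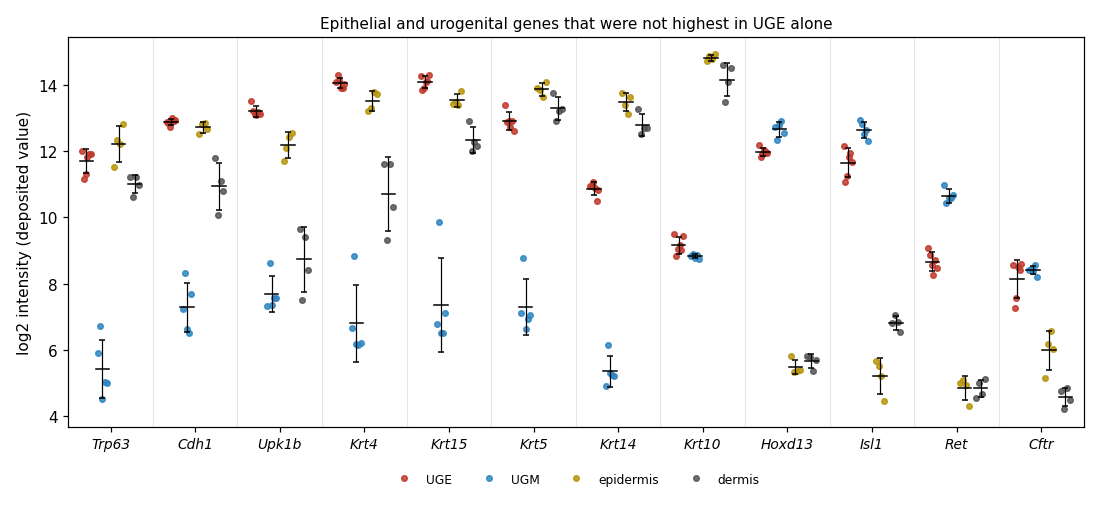
Log2 intensity on each array (points) with mean ± SD (bars) in UGE (n = 6), UGM (n = 5), epidermis (n = 4) and dermis (n = 4) for 12 epithelial and urogenital genes that were not called in UGE alone. Trp63, Cdh1, Krt4 and Krt15 stand near the epidermal level in UGE, Krt10 does not (9.16 in UGE, 14.81 in epidermis), and Hoxd13, Isl1, Ret and Cftr are high in both UGE and UGM.

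The genes lower in UGE than in each tissue were led by Fap and Postn, genes known from fibroblasts. Both were higher in every epidermis array than in any UGM array. Fap, a surface protease of fibroblasts, measured 4.47, 4.87 and 5.69 in UGE (lowest, median, highest), against 10.19, 10.19, 10.14, 10.19 and 9.91 in UGM, 10.53, 11.06, 11.34 and 11.13 in epidermis, and 10.43, 10.52, 10.74 and 10.76 in dermis. The UGM values lay below all those of epidermis and dermis. UGE lay 5.17 below the lowest mean, that of UGM (95% interval of the difference -5.53 to -4.82, adjusted p = 3.3e-14, limma), which is 36.1-fold. Postn, the matrix protein periostin, measured 5.70 to 7.02 in UGE, against 10.83 to 11.66 in UGM, 12.02 to 12.99 in the epidermis and 13.15 to 13.63 in the dermis. Ogn, a small proteoglycan, averaged 4.30 in UGE, 10.85 in UGM, 8.31 in epidermis and 11.48 in dermis. Its gap was -4.01, and -3.76 with the 3 of 6 UGE values under the minimum of 20 set to it. Cav1, the coat protein of caveolae, had a gap of -3.87 and Vcam1, an adhesion molecule, one of -3.61. Vcam1 measured 5.51, 5.24, 4.88, 4.23, 5.08 and 4.89 in UGE, with no separate level in replicates 2 and 3, while Cav1 was highest in those, at 8.39 and 8.32 against 7.10 to 7.90 in the other UGE arrays.

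Among called genes whose UGE values overlap no other array, a limit that leaves out Col1a2 (-3.79), the 15 largest negative gaps also held other kinds of gene. These lay between and after the fibroblast genes in the ranking. Rgcc, a cell cycle regulator, lay at -4.27, the angiotensin receptor Agtr2 at -3.59, the cardiac actin Actc1 at -3.50, the opioid precursor Penk at -3.49, the G protein subunit Gng4 at -3.47, the actin-associated Afap1l2 at -3.44 and the anion transporter Slc26a7 at -3.23. In Rgcc and Slc26a7 4 of the 6 UGE values lay under the minimum of 20, and set to it the gaps were -4.03 and -2.94. Gng4 differed between the other tissues as well, with 5.32 to 6.05 in UGE, against 8.83 to 9.42 in UGM, 12.55 to 12.99 in the epidermis and 8.91 to 11.35 in the dermis. Agtr2 measured 6.07, 7.28, 7.47, 4.83, 4.06 and 4.88 in UGE, against 11.54 to 12.14 in UGM, 8.64 to 9.82 in the epidermis and 12.37 to 12.84 in the dermis. It was again highest in UGE replicates 2 and 3.

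**Figure D4:**
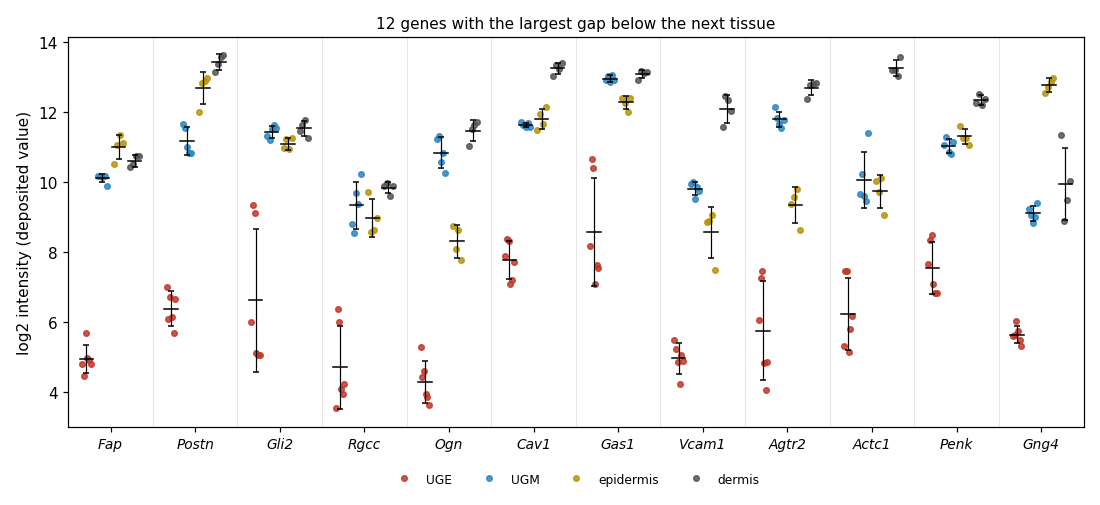
Log2 intensity on each array (points) with mean ± SD (bars) in UGE (n = 6), UGM (n = 5), epidermis (n = 4) and dermis (n = 4) for the 12 genes with the largest gaps below the other tissues among called genes whose UGE values overlap no other, so the separation was set by the choice. In the panels, 2 UGE arrays stand above the other 4 in Gli2 (9.34 and 9.12) and Gas1 (10.66 and 10.40).

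Mesenchymal matrix and regulator genes were lower as a body. Of 29 measured, 20 were called lower than in each tissue and 0 higher, where 1.32% and 2.1% of all genes were. Their median was -2.50 to the lowest other mean, beside 0.19 over all genes. Against UGM 28 were lower (10.2% of all genes were), against dermis 28 (10.5%) and against epidermis 20 (6.12%). Col6a3, a collagen of the interstitial matrix, measured 7.64, 9.66, 9.79, 6.03, 5.97 and 5.84 in UGE, against 11.94 to 12.32 in UGM, 10.04 to 11.39 in the epidermis and 13.40 to 13.96 in the dermis. Col1a2 measured 10.09, 12.73, 12.64, 7.35, 7.42 and 7.62 in UGE, against 14.39 to 14.43 in UGM, 12.48 to 13.85 in the epidermis and 14.71 to 14.90 in the dermis. For Col1a2 UGE replicates 2 and 3 overlapped epidermis, and the gap was -3.79 (adjusted p = 0.00223 against epidermis, limma). Col3a1 had a gap of -3.04 and Lum, a proteoglycan, one of -3.03, with 7.61 to 8.20 in all 6 UGE arrays. Over the 230 lower genes, replicates 2 and 3 deviated from the UGE mean by a median of 0.38 and 0.40, and the other 4 arrays by -0.28 to -0.01. Without replicates 2 and 3, 314 genes were lower and 401 higher, with 212 of the 230 and 331 of the 365 among them. The mesenchymal genes among the lower numbered 24 without replicates 2 and 3, against 20 with all arrays. Without replicates 5 and 6 instead, 198 genes were lower, 12 of them mesenchymal. In these 2 arrays the BioB control probe sets averaged 8.27 and 8.21, against 9.02 to 9.29 in the other UGE arrays. They averaged 7.47 to 8.23 in UGM and 8.71 to 9.30 in the skin arrays. The part of this difference in the results was not tested.

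**Figure D5:**
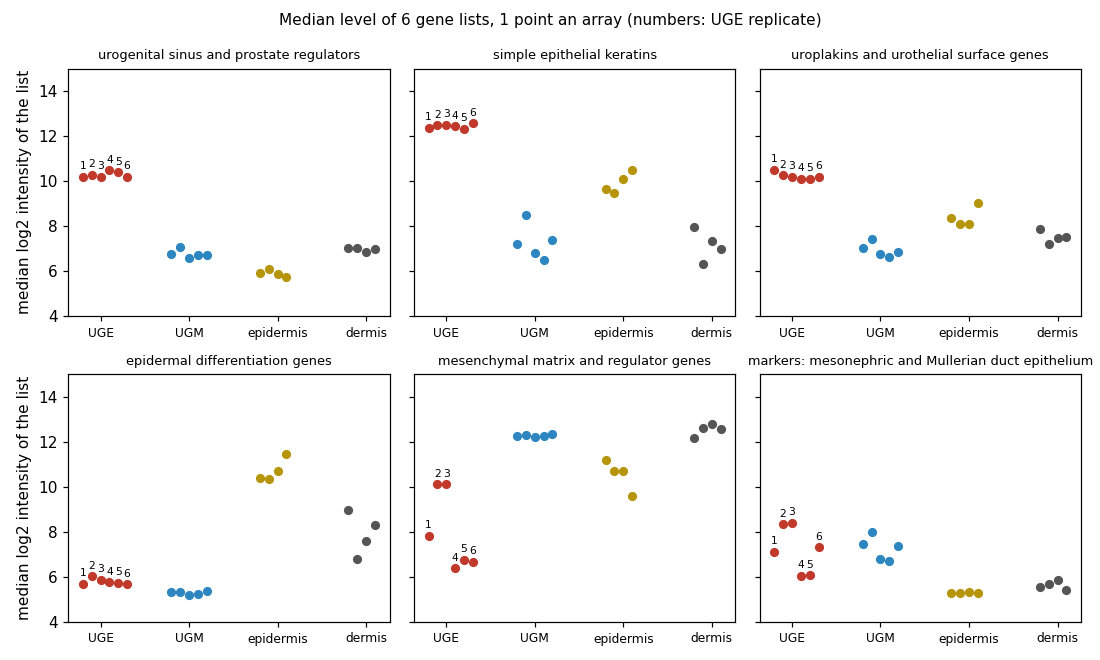
Median log2 intensity of the measured genes of 6 lists on each array (points), in UGE, UGM, epidermis and dermis, with UGE replicate numbers beside the points. In the mesenchymal list UGE replicates 2 and 3 stand at 10.12, above 6.38 to 7.81 in the other UGE arrays and within the 9.61 to 11.2 of epidermis.

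Markers of other cell types were checked for RNA that could enter UGE. None of 11 hindgut genes was called against all 3 tissues, and 1 was lower than in epidermis, where 6.12% of all genes were. Of 10 genes of the mesonephric and Müllerian ducts, which join the sinus, Lhx1 alone was called higher (gap 1.18), where 2.1% of all genes were. Lhx1 measured 5.31, 6.81, 7.21, 5.08, 5.12 and 5.34 in UGE, against 4.54 to 4.77 in UGM, 4.41 to 4.71 in the epidermis and 4.47 to 4.65 in the dermis, and was 0.98 without UGE replicate 2 and 0.90 without replicate 3. With an adjusted p of 0.00513 against epidermis (limma), the call also missed the threshold without any 1 of UGM replicates 3, 4 and 5, epidermis replicates 2, 3 and 4, or dermis replicates 1 and 3, at gaps of 1.16 to 1.18. The median of the duct list was 8.34 and 8.41 in those replicates and 6.04 to 7.31 in the other UGE arrays, against 6.70 to 7.99 in UGM, 5.26 to 5.34 in the epidermis and 5.41 to 5.87 in the dermis. The part of duct RNA in the other results was not tested. The 11 neuron genes were all lower than in UGM, where 10.2% of all genes were, and none was called against all tissues. Of 8 Schwann cell and neural crest genes 6 were lower than in UGM and in dermis, where 10.2% and 10.5% of all genes were. Of these 6, Sox10 and Fabp7 were lower than in each tissue (1.32% of all genes), by 1.60 and 1.53 to epidermis. The other 2 of the 8, Erbb3 and Mbp, which are also made outside Schwann cells, were higher than in UGM by 2.67 and 2.27 and than in dermis by 1.78 and 2.22. Of 12 endothelial genes only the vessel gene Lyve1 (-1.64) was lower than in each tissue, and of 12 macrophage genes only Mrc1 (-1.84). Over all genes the share was 1.32%. The UGE means of Lyve1 and Mrc1 were 4.01 and 6.01. All 6 UGE values of Lyve1 lay under the minimum of 20, and with these set to it the gap was -1.33. Of 12 skeletal muscle genes 5 were lower, where 1.32% of all genes were. Among the 5 were Myog (-1.55) and Myh3 (-1.58), with dermis means of 10.26 and 11.29 and UGE means of 5.05 and 4.73. Acta1 and Tnni1, both at -1.01, were called too, but without 1 array at a time Acta1 missed the limits in 3 cases (UGE replicates 4 and 6, UGM replicate 5) and Tnni1 in 6 (UGE replicates 1, 4 and 6, epidermis replicates 1, 2 and 3), at gaps of -1.03 to -0.78.

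Among 24 cell cycle genes Tyms, an enzyme of nucleotide synthesis, was higher and Kif11, a spindle motor, lower. That is near the 2.1% and 1.32% of all genes that were. The gap of Tyms was 1.12, to UGM, and 0.99 without UGE replicate 1 and 0.96 without UGM replicate 2, both below the limit. Kif11 had a gap of -1.25 and lost its call without UGM replicate 1 (-1.10) or 2 (-1.11). The median of the list was -0.32 against UGM, -0.24 against epidermis and -0.80 against dermis, beside 0.02, -0.04 and -0.04 over all genes. Against dermis 8 members were lower, where 10.5% of all genes were.

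The called genes were also placed by their order along the chromosomes in RefSeq, among 15908 measured protein-coding genes. Of 350 higher genes placed, 55 (15.7%) had another higher gene as direct neighbour, beside 689 (4.33%) of all genes with such a neighbour. These made 29 pairs. Foxa1 lay next to Ttc6, Shh next to Rnf32, Krt8 next to Krt18, Scnn1g next to Scnn1b, and Irs4 next to Col4a5, which lay next to Col4a6. Duox1, the oxidase of mucosal surfaces, lay next to Duoxa1, its maturation factor, and the proteases Mmp7 and Mmp20 lay side by side. Of 227 lower genes 21 (9.25%) had a lower neighbour, beside 446 (2.8%) of all, in 11 pairs such as Col3a1 with Col5a2, Col6a1 with Col6a2, and Dcn with Lum. Members of one gene family lie beside each other in several pairs, and these shares carry no test.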

How the data were processed

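RNA was hybridised to MOE430 2.0 arrays, each of a pool from 1 of 4 tissues (6 UGE, 5 UGM, 4 epidermis, 4 dermis). The deposited values are linear intensity per probe set, normalized between arrays by the authors. The sources name GCOS 1.4 scaling, MAS5 and PLIER, and the step that made the table was not given in the sources used here. From there, log2 values were taken and the arrays were not normalized again. The arrays hold 45101 probe sets. After removal of 64 controls, 41549 exceeded 20 on at least 1 array and entered the tests. Of all, 34945 had 1 gene symbol, 932 several and 9160 none here. Gene names come from the platform annotation. limma 3.58.1 in R 4.3.3 fitted the 4 groups in 1 model (lmFit, eBayes, 2-sided), with 3 contrasts adjusted each by Benjamini-Hochberg over all tested probe sets. The thresholds (adjusted p under 0.01, over 2-fold) are those of the methods. The number of arrays limits the precision.

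The genes named are the 25 largest gaps above and 15 below the other tissues among called genes whose UGE values overlap no other, up to 6 called members of each of 25 lists with any called against the list, regulators, ligands and receptors of the lists, and genes to which the paper gives a UGE signalling role. Members and lists were chosen with earlier results of these data known. The alternatives were other offsets, normalizations, filters and tests, the replicate number as a block, and leaving out arrays. Areg and Pax2 among others have no probe set of their own and are not analysed here, and some other genes are not reported here. The scripts were tested on simulated data.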

Additional observations from a re-analysis of the deposited data

Results flagged for a closer look

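In each tissue, the highest and lowest array of the 122 named genes were set against the rest of their group by Dixon's criterion, and 29 of 488 group checks had an array far from the others, where chance gives about 1 in 20. All values are log2 intensities. In UGE, replicate 1 was high in Clca1, at 12.53 (others 11.49 to 11.82), and in Upk1b, at 13.51 (13.07 to 13.19). UGE replicate 6 was high in Krt7, at 12.26 (11.99 to 12.06), and in Psca, at 10.37 (8.66 to 9.04).

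UGM replicate 2 was high in 6 genes of UGE. It stood at 6.34 in Clca1 (others 3.93 to 4.36), 7.46 in Lypd2 (6.34 to 6.64), 8.62 in Upk1b (7.33 to 7.57), 8.84 in Krt4 (6.15 to 6.65), 9.85 in Krt15 (6.50 to 7.10) and 8.78 in Krt5 (6.62 to 7.11). UGM replicate 1 was at 14.59 in Col3a1 (14.42 to 14.47), replicate 3 at 11.94 in Col6a3 (12.24 to 12.32), replicate 4 at 7.35 in Lgr5 (7.55 to 7.61) and replicate 5 at 9.91 in Fap (10.14 to 10.19).

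Epidermis replicate 1 was high in Irs4, at 9.51 (others 4.68 to 5.14), in Cldn6, at 6.10 (5.99 to 6.00), and in Hoxd13, at 5.80 (5.34 to 5.39). It was low in Inha, at 7.74 (8.30 to 8.41), Postn, at 12.02 (12.85 to 12.99), Kif11, at 8.29 (9.12 to 9.17), and Ptprz1, at 8.11 (9.24 to 9.43). Epidermis replicate 3 was at 13.55 in Krt1 (14.02 to 14.09) and replicate 4 at 7.50 in Vcam1 (8.86 to 9.07).

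Dermis replicate 1 was low in Agtr2, at 12.37 (others 12.79 to 12.84), Col6a3, at 13.40 (13.90 to 13.96), and Col1a2, at 14.71 (14.89 to 14.90), and high in Psca, at 7.40 (6.48 to 6.58). Dermis replicate 3 was at 7.10 in Scnn1b (7.27 to 7.30) and replicate 4 at 12.24 in Myh3 (10.96 to 11.00).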

How the results depend on the processing

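Relative to the 836 probe sets higher in UGE than in each tissue, 336 lower, 365 genes higher and 230 lower, 2701 and 2264 probe sets higher and lower than the equal-weight mean of the 3 tissues, and 776 and 840 probe sets shared with epidermis and with UGM, the counts changed by over 1.5 times in these settings. With log2(value + 50), 517 probe sets were higher and 175 lower, 130 genes lower, 1611 and 1430 probe sets differed from the mean and 530 were shared with UGM. With the methods' t-test 203 probe sets and 136 genes were lower. With limma's treat against 2-fold the counts were 249, 67, 149, 51, 895, 931, 167 and 160 in the order above, and with a gap over 4-fold 184, 87, 113, 64, 543, 662, 107 and 111. Asking all probe sets of a gene to go the same way left 231 higher and 126 lower genes. Leaving out 1 array at a time gave 768 to 916 probe sets higher, 294 to 389 lower, 356 to 376 genes higher, 197 to 257 lower, 2519 to 2900 and 2200 to 2345 against the mean, and 684 to 862 and 729 to 901 shared. In the fit with the replicate block 804 probe sets were higher, 297 lower, 355 genes higher and 199 lower. Same-numbered arrays of UGE and UGM deviated together with r = 0.648, 0.006, -0.122, 0.138 and -0.406, and only number 1 correlated best with its own number. Other tissues were visible in some of these arrays, so these values cannot decide whether same-numbered samples came from the same embryos. Among lists, and chosen after seeing the data, leaving out UGE replicates 2 and 3 gave 2 lower ligands, 1 lower receptor, 0 lower cell cycle genes, 0 higher duct genes, 3 lower endothelial, 1 lower smooth muscle and 3 lower erythroid genes. Leaving out UGE replicates 5 and 6 gave 12 lower mesenchymal and 3 lower skeletal muscle genes, leaving out UGM replicate 2 gave 0 cell cycle genes in either direction, and leaving out dermis replicate 1 gave 0 duct genes. Of 97 called genes named, 44 missed a limit in at least 1 alternative and 0 changed sign. Sox9 was 0.86 with log2(value + 50) and 0.95 after quantile normalization, and Gli2, Gas1 and Gli1 missed the threshold under the methods' t-test. The cause of these changes was not tested.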
